A study of Mus musculus with 6 samples.

Results

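The genes described here mark 2 kinds of tissue macrophage, those at the borders of the central nervous system and the Kupffer cells of the liver. There were 10 of them among the 25576 genes listed in any of the deposited tables, chosen by name. Border macrophages were represented by 6 genes, Mrc1, Cd163, Lyve1, F13a1, Pf4 and Ms4a7, and Kupffer cells by 4, Clec4f, Vsig4, Timd4 and Cd5l.

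Whole spinal cord was taken at postnatal day 4 from FVB mice of the Taiwanese model of spinal muscular atrophy (SMA), a motor neuron disease caused by loss of the SMN protein. SMA mice were labelled as null for mouse Smn with a hemizygous human SMN2 transgene (mSmn-/-, hSMN22tg/0), and controls as heterozygous for mouse Smn with the same transgene (mSmn+/-, hSMN22tg/0). The controls are thus heterozygous carriers and not wild-type mice, and both groups carry human SMN2. Each group had 3 libraries of ribosome-depleted RNA, and the sources used here do not make clear whether the 3 libraries of a group came from separate animals, so p-values measure only the spread between these libraries. Expression was given as FPKM, a count of sequenced fragments scaled by exon length and by the mapped fragments of the library, which allows levels to be compared between genes. The summed FPKM was 360694.4, 413652.7 and 346181.0 in control replicates 1, 2 and 3 and 366515.7, 364308.3 and 368423.8 in SMA replicates 1, 2 and 3.

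Border macrophages lie in the meninges, around vessels and in the choroid plexus, outside the nervous tissue in which microglia live. They take up material from fluid through scavenger and lectin receptors. Kupffer cells line the sinusoids of the liver, where they clear particles, bacteria and aged red cells from blood. Both are resident macrophages that depend on signals through the receptor Csf1r, and in the mouse Clec4f is used as a marker of Kupffer cells.

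Control replicate 2 stood apart from the other libraries. Across genes, its log2(FPKM + 1) values correlated with those of the other 5 libraries at 0.836 to 0.849, whereas the other libraries correlated with each other at 0.983 to 0.992. The tests and the list medians are therefore given with and without control replicate 2. Smn1, the targeted gene, had 10.4, 8.64 and 11.9 FPKM in control replicates 1, 2 and 3 and 8.48, 9.30 and 11.1 FPKM in SMA replicates 1, 2 and 3. The groups overlapped, so Smn1 gave no check of the labels, and how reads of Smn1 arise in the SMA libraries was not tested. The tissue label was checked with 14 genes of neurons and glia, all of them above 0 in every library, with a summed level of 2023, 1477 and 2326 FPKM in the controls and 1837, 2054 and 2036 FPKM in the SMA libraries. Mbp, a myelin protein, was the most abundant of these over the 6 libraries, and Stmn2 and Tubb3, genes of neurons, followed. Stmn2 had 235 FPKM in control replicate 2 and 416 to 468 FPKM in the other 5 libraries.

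All 10 genes are protein coding. On mm10, Mrc1 (ENSMUSG00000026712) lies at chr2:14229392-14332057 on the plus strand and Clec4f (ENSMUSG00000014542) at chr6:83644542-83656187 on the minus strand. Pf4 (ENSMUSG00000029373), the shortest, lies at chr5:90772435-90773383, and Cd5l (ENSMUSG00000015854) at chr3:87357881-87371073, both on the plus strand. Vsig4 (ENSMUSG00000044206) is on chromosome X at 96247203 to 96293438. The span of F13a1 holds exons that overlap the antisense genes Gm49144 and Gm30489 in GENCODE M21. The libraries were made strand-specific, but the sources used here do not state that the FPKM used strand, so reads of these antisense genes cannot be told apart from those of F13a1.

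The start regions of the 10 genes were searched for 3 motifs on both strands. GAGGAA is the core of the site of the macrophage factors PU.1 and SpiC, TGCTGAC is part of the MAF recognition element and CACGTG is the E-box of the MITF and TFE factors. RefSeq windows of 300 bases on GRCm38.p6 were matched for 9 of the 10 genes, all but Lyve1. GAGGAA was present in a window of 6 of these 9 genes and in 28.3% of all 32851 windows. TGCTGAC was present for 1 gene, Timd4, and in 4.67% of all windows, and CACGTG was present for 0 of the 9 genes and in 7.15% of all windows. The windows shown are those of a pair of border genes and a pair of Kupffer genes, with the most matches or the only TGCTGAC match, at chr2:14229164-14229463 (plus strand), chr13:37050195-37050494 (minus strand), chrX:96293389-96293688 (minus strand) and chr11:46810549-46810848 (plus strand). Capitals mark the matches, which describe letters only.
Mrc1: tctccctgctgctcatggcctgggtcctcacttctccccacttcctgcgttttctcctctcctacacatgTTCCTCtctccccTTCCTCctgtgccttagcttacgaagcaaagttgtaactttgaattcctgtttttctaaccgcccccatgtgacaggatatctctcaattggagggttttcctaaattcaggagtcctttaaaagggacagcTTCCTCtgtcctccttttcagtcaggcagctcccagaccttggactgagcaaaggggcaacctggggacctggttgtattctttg
F13a1: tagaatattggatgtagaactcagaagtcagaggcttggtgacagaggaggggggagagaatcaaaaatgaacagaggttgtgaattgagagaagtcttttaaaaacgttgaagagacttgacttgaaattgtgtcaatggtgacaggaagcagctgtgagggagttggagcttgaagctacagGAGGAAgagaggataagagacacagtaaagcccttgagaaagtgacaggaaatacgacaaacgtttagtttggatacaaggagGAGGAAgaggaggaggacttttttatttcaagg
Vsig4: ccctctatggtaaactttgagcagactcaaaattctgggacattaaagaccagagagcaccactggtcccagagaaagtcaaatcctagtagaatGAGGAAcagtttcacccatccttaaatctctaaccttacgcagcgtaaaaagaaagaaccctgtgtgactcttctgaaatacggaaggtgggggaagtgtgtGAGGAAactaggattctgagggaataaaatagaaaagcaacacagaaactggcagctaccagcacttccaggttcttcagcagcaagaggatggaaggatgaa
Timd4: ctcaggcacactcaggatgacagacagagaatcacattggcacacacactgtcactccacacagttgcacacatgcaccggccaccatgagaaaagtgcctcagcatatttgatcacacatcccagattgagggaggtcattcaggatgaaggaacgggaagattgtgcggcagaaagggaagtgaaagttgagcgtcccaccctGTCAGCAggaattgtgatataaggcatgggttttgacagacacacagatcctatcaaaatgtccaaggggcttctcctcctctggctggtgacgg

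The 4 Kupffer genes were close to 0 in every library but control replicate 2. A value of 0 stands for a gene without an entry in the table of that library. Clec4f, a lectin of Kupffer cells that binds galactose-type sugars, had 0.0835, 9.06 and 0 FPKM in control replicates 1, 2 and 3 and 0.146, 0.0462 and 0.0711 FPKM in SMA replicates 1, 2 and 3. Vsig4, a receptor for complement fragments, had 0, 4.13 and 0 FPKM in the controls and 0, 0.0354 and 0.0368 FPKM in the SMA libraries. For both genes the single high value was that of control replicate 2, and the other controls overlapped with the SMA libraries. Timd4, a receptor for phosphatidylserine on dying cells, had 0.0699, 2.18 and 0 FPKM in the controls and 0, 0.0401 and 0 FPKM in the SMA libraries. Cd5l, a secreted protein of macrophages, had 0.0470, 11.8 and 0 FPKM in the controls and 0, 0.111 and 0 FPKM in the SMA libraries. Again control replicate 2 alone was high, and the remaining libraries of both groups lay at or near 0. The 4 genes together reached 27.1 FPKM in control replicate 2. Elsewhere their sum was at most 0.232 FPKM, and 3, 0, 1, 4 and 2 of the 4 genes had an entry in control replicates 1 and 3 and SMA replicates 1, 2 and 3.

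The border genes, by contrast, were present in every library. Mrc1, the mannose receptor, had 1.90, 10.4 and 2.24 FPKM in control replicates 1, 2 and 3 and 2.27, 1.87 and 0.992 FPKM in SMA replicates 1, 2 and 3. Lyve1, a receptor for hyaluronan, had 1.20, 3.71 and 1.07 FPKM in the controls and 1.35, 0.717 and 0.487 FPKM in the SMA libraries. Both genes were highest in control replicate 2 and lowest in SMA replicate 3, and SMA replicate 1 lay above 1 or more controls, so the groups overlapped. Cd163, the scavenger receptor for hemoglobin bound to haptoglobin, had 0.277, 0.512 and 0.0568 FPKM in the controls and 0.246, 0.136 and 0.234 FPKM in the SMA libraries. Its lowest value was that of control replicate 3, and all SMA values lay within the range of the controls.

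Pf4, a chemokine also made by megakaryocytes, had 1.69, 17.6 and 2.60 FPKM in the controls and 2.30, 1.46 and 0.423 FPKM in the SMA libraries. F13a1, the catalytic subunit of coagulation factor XIII, had 1.15, 1.92 and 1.79 FPKM in the controls and 1.82, 0.992 and 0.789 FPKM in the SMA libraries. Ms4a7, a membrane protein of macrophages, had 0.0121, 0.629 and 0.0555 FPKM in the controls and 0.216, 0.0922 and 0.0472 FPKM in the SMA libraries. The groups overlapped for all 3 genes. Pf4 was 6.77 times as high in control replicate 2 as in the next library, whereas F13a1 was only 1.06 times as high.

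**Figure D1:**
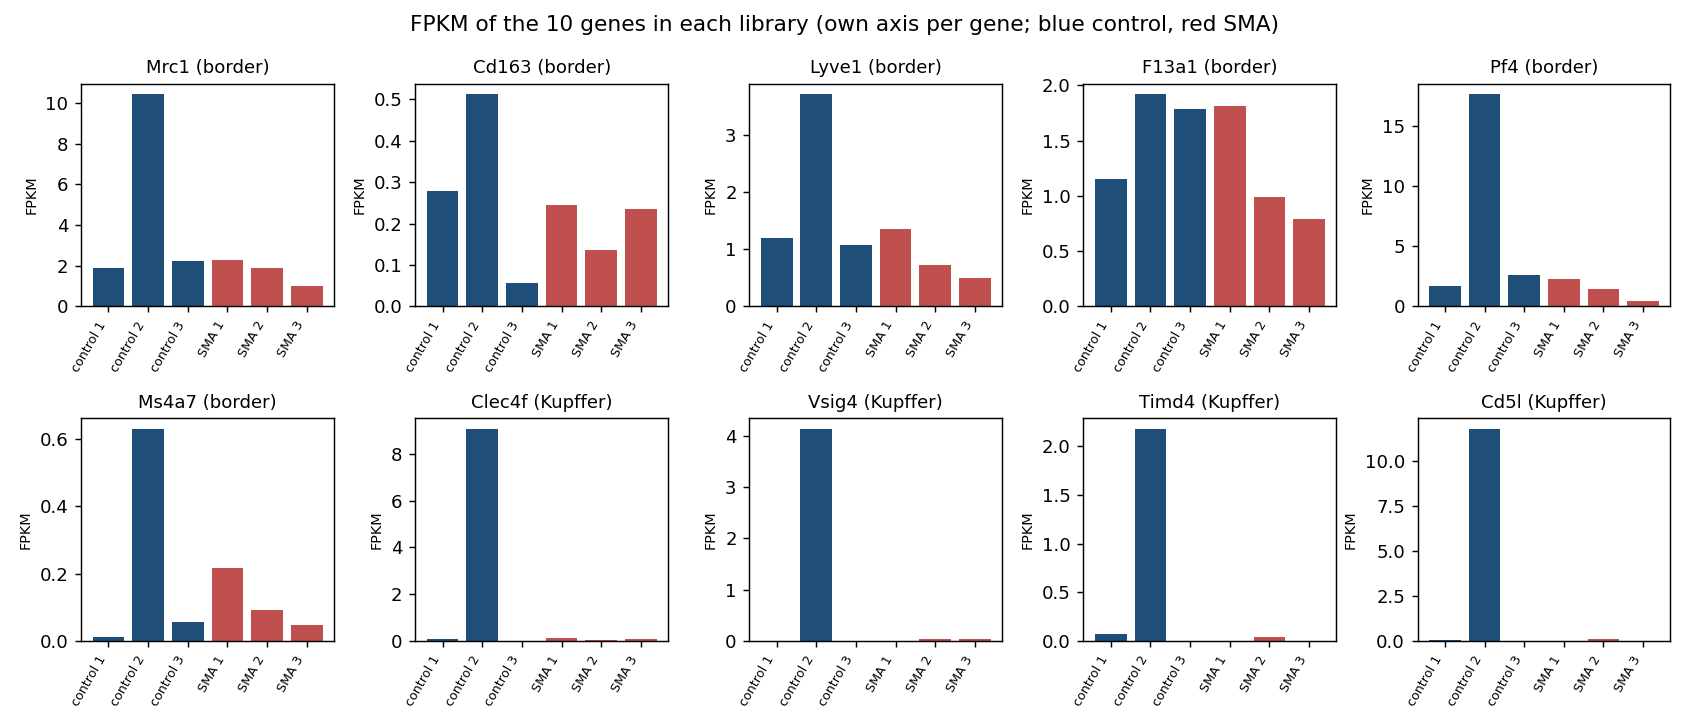
FPKM of each of the 10 genes in the 6 libraries, with controls in blue and SMA libraries in red and an own vertical axis for each gene. Each bar is 1 library, and there are no error bars. All 10 genes were highest in control replicate 2, as were 25.8% of all genes that reached 0.5 FPKM in a library, and the 4 Kupffer genes had no other library above 0.146 FPKM.

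Control replicate 2 was the highest library for all 10 genes, beside 25.8% of all 18852 genes that reached 0.5 FPKM in a library. It was at least 2-fold above the highest of the other 5 libraries for 4 of the 6 border genes (Mrc1, Lyve1, Pf4 and Ms4a7) and for 4 of the 4 Kupffer genes. Over the same 18852 genes, this held for 9.82%. In summed FPKM, the border genes had 34.8 in control replicate 2 and at most 8.20 elsewhere, and the Kupffer genes 27.1 and at most 0.232. As a fold, the excess differed in size between the kinds of gene. Against the highest other library it was 31.1-fold for Timd4, 61.9-fold for Clec4f, 107-fold for Cd5l and 112-fold for Vsig4, and between 1.06-fold and 6.77-fold for the 6 border genes. This is a description of a single library and was not tested.

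In the SMA libraries, the order of levels was Mrc1 with 1.71 ± 0.654 FPKM (SD, n = 3), Pf4 with 1.40 ± 0.942, F13a1 with 1.20 ± 0.544, Lyve1 with 0.851 ± 0.446, Cd163 with 0.205 ± 0.0601 and Ms4a7 with 0.119 ± 0.0876. Neighbours among the first 4 genes lay within their SD, and the step from Lyve1 to Cd163 was larger than either SD. Cd163 and Ms4a7 differed by more than the SD of Cd163 and by less than that of Ms4a7. Clec4f, the highest Kupffer gene of the SMA libraries, had 0.0879 ± 0.0521 FPKM (SD, n = 3), within the spread of Ms4a7. In control replicate 2 the order was Pf4, Cd5l, Mrc1, Clec4f, Vsig4, Lyve1, Timd4, F13a1, Ms4a7 and Cd163.

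The contrast of the lists within each library was taken as the mean log2(FPKM + 1) of the 6 border genes minus that of the 4 Kupffer genes. It was 0.86, -0.62 and 1.04 in control replicates 1, 2 and 3 and 1.08, 0.74 and 0.51 in SMA replicates 1, 2 and 3. The Kupffer list was the higher only in control replicate 2, and the SMA values overlapped with those of the other controls. Of the summed FPKM of the 10 genes, the Kupffer genes made up 43.8% in control replicate 2, against 0% to 4.22% elsewhere.

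Microglia, the macrophages inside the cord, showed no such excess in control replicate 2. Their 10 genes had a summed level of 82.9, 70.2 and 84.6 FPKM in the controls and 79.9, 80.2 and 74.0 FPKM in the SMA libraries, and 0 of the 10 genes were at least 2-fold higher in control replicate 2 than in the other libraries. P2ry12, the ADP receptor of microglia, had 19.2, 12.05 and 12.7 FPKM in the controls and 14.0, 15.6 and 13.7 FPKM in the SMA libraries. Sall1, a transcription factor of microglia, had 10.2 to 13.7 FPKM over the 6 libraries. The groups overlapped for P2ry12. The difference of border from microglia genes on the log2 scale was -1.77, -0.35 and -1.73 for control replicates 1, 2 and 3 and -1.59, -1.86 and -1.98 in SMA replicates 1, 2 and 3. The border genes thus came nearest to the microglia genes in control replicate 2, and SMA replicates 2 and 3 had the lowest differences.

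**Figure D2:**
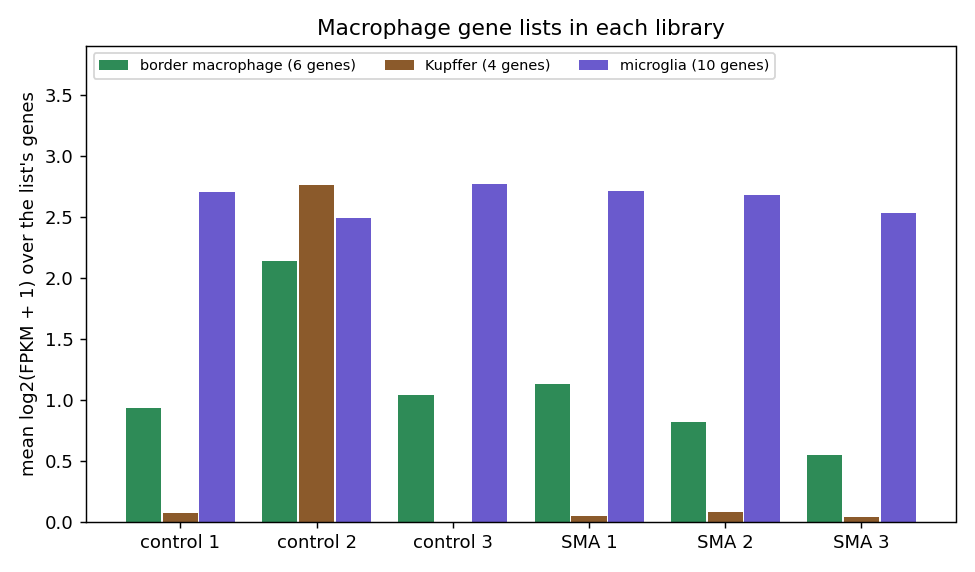
Mean log2(FPKM + 1) of the border macrophage, Kupffer and microglia lists in each library, with 1 bar for each list. The microglia bars lie between 2.49 and 2.76, the border bars between 0.55 and 2.14, and the Kupffer bar is 2.76 in control replicate 2 and at most 0.08 in the other 5 libraries.

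The comparison of SMA with control asked whether these macrophage genes differ in the diseased cord. With all 6 libraries, limma tested 17088 genes whose mean reached 0.5 FPKM, among them 7 of the 10, and Cd163, Ms4a7 and Timd4 were below this filter. Clec4f, Vsig4 and Cd5l passed the filter only through control replicate 2. None of the 7 passed an adjusted p of 0.05 (limma, Benjamini-Hochberg), and 0% of all genes tested did. At an unadjusted p under 0.05, 0 of the 7 genes were called, beside 409 lower genes, or 2.39% of all genes tested, and 581 higher genes. With p under 0.05 and a fold over 2 as well, 17 genes were lower and 12 higher, 0 of them among the 10. This split was 7 lower and 16 higher without control replicate 2, 11 and 18 after quantile normalization, 125 and 64 with a pseudocount of 0.1 and 131 and 13 without control replicate 3, and 0 of the genes tested among the 10 were in any of these counts. At an unadjusted p under 0.05 alone, rescaling to the same total gave 386 lower and 338 higher, median ratio scaling 599 lower and 547 higher, and quantile normalization 336 lower and 648 higher. Leaving out control replicate 2 gave 862 lower and 874 higher genes, and leaving out any other single library gave between 125 and 712 lower and between 214 and 1040 higher. In bulk tissue, fewer cells of a kind and less RNA per cell cannot be told apart.

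On the log2(FPKM + 1) scale, which understates the change of low genes, Mrc1 differed by -0.84 ± 0.53 (SE) and Pf4 by -1.32 ± 0.74 (SMA minus control), with an adjusted p of 0.683 from limma with Benjamini-Hochberg adjustment for both. Lyve1 differed by -0.61 ± 0.36 and F13a1 by -0.27 ± 0.23. Among the Kupffer genes, Clec4f differed by -1.03 ± 0.86, Vsig4 by -0.75 ± 0.63 and Cd5l by -1.20 ± 0.95. None of these differences passed the test. Clec4f, Vsig4 and Cd5l passed the filter only through control replicate 2, so their differences and SE rest on that library. For these genes the test cannot decide whether SMA and control differ. The exact two-sided permutation test, whose smallest possible p is 0.1 with 3 against 3 libraries, gave p = 0.3 for Mrc1, Lyve1 and F13a1, 0.2 for Pf4, 0.7 for Cd163, 0.9 for Ms4a7 and between 0.4 and 1 for the 4 Kupffer genes. This design cannot reach 0.05 in that test.

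Without control replicate 2, 4 of the 10 genes passed the filter among 16574 genes, all of them border genes, and 0 of the 4 passed the test. At an adjusted p under 0.05, limma with Benjamini-Hochberg adjustment called 0.0121% of all genes. These were 2 genes outside the lists, Snora74a and Rpph1, named after their values were seen, and both were higher in 3 of 3 SMA libraries. With no filter on low FPKM 0 genes were called, with a smallest adjusted p of 0.255 in limma, and 1 gene was called when SMA replicate 3 was left out as well, both alternatives added after the data were seen. At an unadjusted p under 0.05, 0 of the 4 genes were called, beside 5.2% of all genes tested that were lower. The differences were -0.21 ± 0.22 (SE) for Mrc1, -0.23 ± 0.21 for Lyve1, -0.18 ± 0.23 for F13a1 and -0.46 ± 0.33 for Pf4, with an adjusted p of 0.777, 0.733, 0.818 and 0.664 from limma. The exact two-sided permutation test, with 3 against 2 libraries, gave p = 0.6, 0.6, 0.6 and 0.4 for these genes. That test cannot reach 0.05 with so few libraries. The values of Mrc1, Lyve1, F13a1 and Pf4 were closer to 0 than with all 6 libraries.

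Over all 6 border genes, the median log2 fold change was -0.44 with all libraries and -0.19 without control replicate 2. Over the 4 Kupffer genes it was -0.89 with all libraries and 0.03 without control replicate 2. In the second setting none of the 4 genes passed the filter and no value was above 0.146 FPKM. The sign of that median therefore says little. The median over all genes tested was 0.04 and 0.00. Without control replicate 2 and SMA replicate 3, a pair chosen after the values were seen, the border median was -0.02. Leaving out control replicate 1 or 3 moved the Kupffer median to -1.34 or -1.37, since control replicate 2 then made up more of its group.

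**Figure D3:**
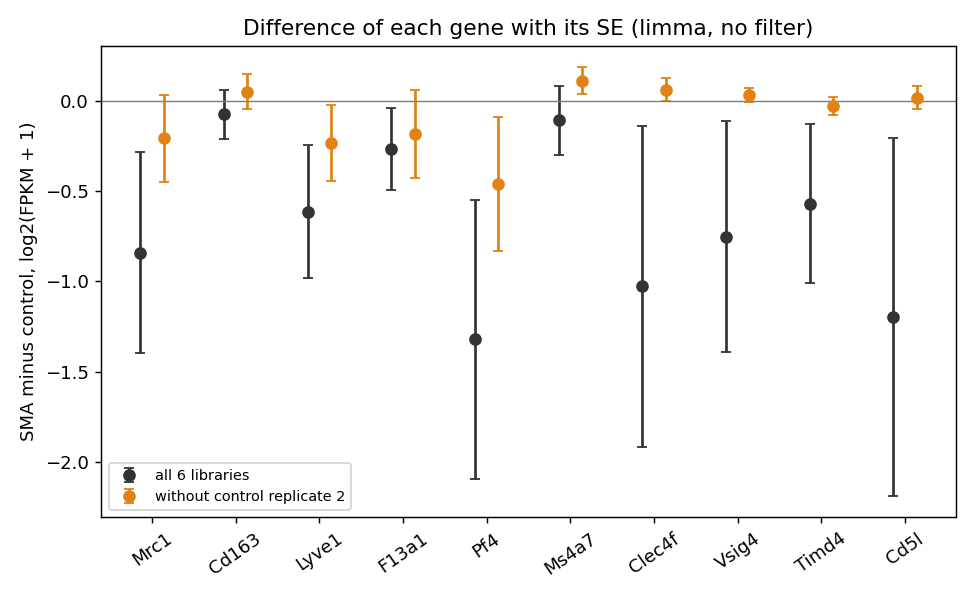
Difference between SMA and control in log2(FPKM + 1) for each of the 10 genes, with its SE from limma fitted with no filter on low FPKM. Black points use all 6 libraries and orange points leave out control replicate 2. With all libraries the 10 points lie between -1.32 and -0.07, and without control replicate 2 the 4 Kupffer points lie between -0.03 and 0.06.

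Other genes of the same cells gave a mixed picture. Of 12 further border macrophage genes, 7 were at least 2-fold higher in control replicate 2 than in the other libraries, and 4 passed the filter with all 6 libraries, with 0 past the adjusted threshold in limma. Maf, a transcription factor of macrophages that other cells of the cord also express, was the most abundant and had 17.6, 14.7 and 14.97 FPKM in the controls and 16.9, 14.3 and 14.6 FPKM in the SMA libraries. Dab2, an adaptor for endocytosis, had 6.99, 10.6 and 9.41 FPKM in the controls and 7.51, 5.58 and 5.65 FPKM in the SMA libraries, and Stab1, a scavenger receptor, had 3.71, 12.5 and 6.08 FPKM against 5.25, 2.65 and 2.86 FPKM. For each of these genes SMA replicate 1 lay within the range of the controls. Among the 12, SMA and control values were fully separated for 2, in opposite directions. Ms4a6c had 0.429, 1.34 and 0.489 FPKM in the controls and 0.286, 0.129 and 0.106 FPKM in the SMA libraries, and Cbr2, an enzyme, was set to 0 in control replicates 1 and 2 for want of an entry and had 0.0983 FPKM in control replicate 3 and 0.811, 0.110 and 0.404 FPKM in the SMA libraries. Of all 18852 genes that reached 0.5 FPKM in a library, every SMA value lay below every control for 6.43% and above for 9.99%. Of 10 further genes of Kupffer cells and red pulp macrophages, 9 were at least 2-fold higher in control replicate 2, all but Il18bp, which binds interleukin 18 and had 6.05 FPKM there and 2.09 to 3.51 FPKM elsewhere. Slc40a1, the iron exporter, had 7.91, 45.2 and 7.28 FPKM in the controls and 5.71, 5.51 and 5.25 FPKM in the SMA libraries, with no overlap between groups, against 6.67% of all genes tested in which every SMA library lay below every control. Its difference without control replicate 2 was -0.40 with an adjusted p of 0.308 in limma. Marco was the only other gene of these 10 without overlap. It had 0.0454, 12.3 and 0.104 FPKM in the controls and 0, 0 and 0.0259 FPKM in the SMA libraries. Hmox1, which degrades heme, had 4.24, 21.6 and 3.70 FPKM in the controls and 6.35, 3.71 and 3.06 FPKM in the SMA libraries.

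Of 18 genes shared by macrophages of any kind, 15 were highest in control replicate 2, and Cd68, Aif1 and Fcgr1 were not. The summed level of the list was 80.4, 203 and 83.4 FPKM in the controls and 85.5, 86.0 and 77.9 FPKM in the SMA libraries, and 4 of the 18 were at least 2-fold higher in control replicate 2. Lyz2, lysozyme and the most abundant of the list by its mean, had 59.3 FPKM there and between 2.49 and 4.89 FPKM elsewhere. C1qb, a subunit of complement C1q, had 21.5 FPKM against 8.82 to 11.9 FPKM, and Csf1r had 17.0 FPKM against 9.97 to 11.7 FPKM. Of 9 growth factors and receptors, 8 were listed in the tables and 2 were at least 2-fold higher in control replicate 2. Tgfbr1 had 10.3 to 12.2 FPKM and Csf2ra 5.20 to 7.71 FPKM over the 6 libraries. None of the genes of these lists passed the adjusted threshold in limma with or without control replicate 2.

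Control replicate 2 also held genes of other cells of liver and blood. The 11 hepatocyte genes had a summed level of 76.1, 27027 and 51.4 FPKM in the controls and 43.4, 98.7 and 53.1 FPKM in the SMA libraries, all 11 above 0 in every library and all 11 at least 2-fold higher in control replicate 2. Alb, serum albumin, was the most abundant with 44.6, 15894.5 and 30.7 FPKM in the controls and 24.6, 56.2 and 30.5 FPKM in the SMA libraries, followed by Ahsg and Apoa1 with 4921 and 2182 FPKM in control replicate 2. The 7 genes of liver sinusoidal endothelium summed to 2.49, 51.7 and 2.66 FPKM in the controls and 2.89, 2.34 and 1.96 FPKM in the SMA libraries, and 7 of 7 were at least 2-fold higher in control replicate 2. Stab2, Fcgr2b and Clec4g led this list with 19.1, 8.35 and 9.08 FPKM in control replicate 2.

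The blood lists followed the same library. The erythroid genes, 5 of 6 of which were in the tables, summed to 722, 7096 and 452 FPKM in the controls and 423, 644 and 479 FPKM in the SMA libraries, with Hba-a1, Hbb-bt and Alas2 the most abundant, and 5 of 5 were at least 2-fold higher in control replicate 2. The 7 neutrophil genes, led by S100a8, S100a9 and Ngp, summed to 418 FPKM in control replicate 2, against 5.36 to 11.6 FPKM elsewhere, with 7 of 7 at least 2-fold higher. The 6 monocyte genes, led by Fn1, Plac8 and Ly6c2, summed to 337 FPKM against 11.8 to 27.5 FPKM, with 6 of 6 at least 2-fold higher, although Fn1, at 318 FPKM in control replicate 2, is also made by other cells. Of 8 megakaryocyte and platelet genes, 5 were at least 2-fold higher in control replicate 2, among them Ppbp with 23.9 FPKM there and 0.0648 to 0.457 FPKM elsewhere, and Itga2b with 3.51 FPKM against 0.240 to 1.39 FPKM. Gp1bb, the most abundant of that list, was not, with 17.4 FPKM against 18.3 to 24.1 FPKM. Of 4 genes of lymphatic endothelium, which also expresses Lyve1, 0 were at least 2-fold higher in control replicate 2, and Reln, Prox1 and Pdpn led the list with 77.3 to 89.2, 7.56 to 15.1 and 1.46 to 3.71 FPKM. Which cells gave the reads of these genes was not tested, and neither was the part of lymphatic or liver endothelium in Lyve1. The part of these other cells in the values of the 10 genes was not tested.

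Genes of meningeal fibroblasts were low in the SMA libraries in which 4 of the 6 border genes were low. The 8 fibroblast genes summed to 174, 183 and 161 FPKM in the controls and 188, 82.1 and 41.4 FPKM in the SMA libraries. Col1a2, a collagen chain and the most abundant, had 55.8, 45.8 and 59.7 FPKM in the controls and 67.3, 34.2 and 22.1 FPKM in the SMA libraries, and Col3a1 had 50.2, 62.0 and 38.8 FPKM against 53.2, 20.2 and 3.10 FPKM. Col1a1 had 36.1, 26.5 and 34.9 FPKM in the controls and 38.5, 12.7 and 6.05 FPKM in the SMA libraries. SMA replicate 3 was lowest and SMA replicate 2 next lowest for these 3 genes, and SMA replicate 1 was within or above the controls. SMA replicate 3 was the lowest library for 6 of the 8 fibroblast genes and for 4 of the 6 border genes (Mrc1, Lyve1, F13a1 and Pf4), beside 11.6% of all genes that reached 0.5 FPKM. Cd163 was lowest in control replicate 3 and Ms4a7 in control replicate 1. None of the 8 genes passed the adjusted threshold in limma. Border minus meningeal fibroblast mean log2(FPKM + 1), a value added after the data were seen, was -2.65, -1.77 and -2.39 in the controls and -2.45, -1.88 and -1.45 in the SMA libraries. Whether the amount of meninges in each sample differed was not tested.

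**Figure D4:**
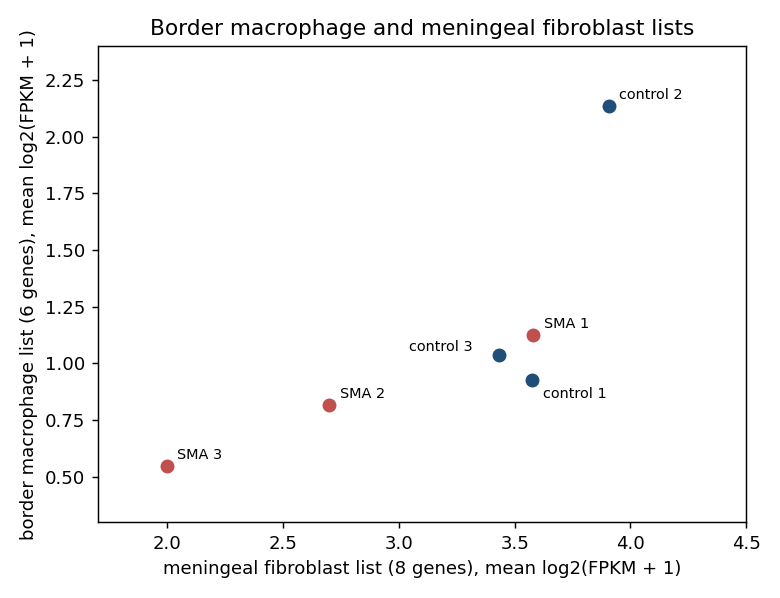
Mean log2(FPKM + 1) of the 6 border macrophage genes against that of the 8 meningeal fibroblast genes, with 1 point for each library, controls in blue and SMA libraries in red. SMA replicate 3 is lowest on both axes at 2.00 and 0.55, SMA replicate 2 follows, and control replicate 2 lies apart at 3.91 and 2.14.

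The genes outside the lists whose pattern was most like the mean of the border genes over the 6 libraries were Ccdc80, Col18a1 and Abca1, with a Pearson r of 0.999, 0.999 and 0.994 among 15312 genes compared. Over the 5 libraries without control replicate 2 their r was 0.996, 0.9904 and 0.956. Ccdc80 had 3.47, 8.58 and 3.74 FPKM in the controls and 4.08, 3.29 and 2.59 FPKM in the SMA libraries. For the Kupffer genes they were Ugt2b34, Bhmt2 and Serpina11, each with an r that rounded to 1.0, and 450 genes had an r over 0.99. These 3 genes had 27.0, 20.5 and 46.8 FPKM in control replicate 2 and at most 0.282 FPKM in any other library, and over the 5 libraries without control replicate 2 their r was 0.969, 0.976 and 0.962. The r values describe libraries that share a few strong differences and have no p.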

How the data were processed

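Whole spinal cord RNA of 3 control and 3 SMA libraries was depleted of ribosomal RNA. According to the submitters' processing notes and the study's methods, reads were aligned with HISAT2 to mm10 and quantified with Cufflinks, and the deposited unit was FPKM. Versions and annotation were not given in the sources used here. A gene absent from a library's table was set to 0 FPKM. Values were analysed as log2(FPKM + 1) in R 4.3.3 with limma 3.58.1 (lmFit, eBayes with a trend), for genes whose mean reached 0.5 FPKM, with Benjamini-Hochberg adjustment over all genes tested. The fit was checked on simulated data modelled on the libraries other than control replicate 2. Changes were set only in genes more abundant than the macrophage genes described here. That check does not tell how well changes of these macrophage genes, or changes with control replicate 2 included, would be found. Exact two-sided permutation tests used scipy 1.17.1. A count test was not used because FPKM are not counts. The depth of the libraries was not given, and FPKM give no counting error. For genes under 0.05 FPKM, the most frequent ratio to control replicate 1 lay between 1.06 and 1.16 in the other libraries. Groups came from the labels.

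The members and the lists were chosen with earlier results of these data known, so no score over a list was tested. From each of the other lists the 3 genes with the highest mean FPKM were named, with any past the adjusted threshold, and for each sub-list the 3 genes of at least 1 FPKM with the highest Pearson r. A gene that this rule names is not reported here. Ccl21a, Cbr2, Ms4a6c, Marco, Cd68, Aif1, Fcgr1, Slc47a1 and the sex-linked genes were named after their values were seen. Coordinates were checked against GENCODE M21 (GRCm38), where the span of Lyve1 differs. Promoters came from RefSeq on GRCm38.p6. Alternatives were another pseudocount, other filters, 3 scalings, a robust fit, a replicate block and leaving out each library.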

Additional observations from a re-analysis of the deposited data

How the results depend on the processing

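Under 17 alternatives, none of the members tested passed an adjusted p of 0.05 in limma, where 10 were tested with no filter on low FPKM and 4, 6 or 7 otherwise, and the smallest adjusted p of any of them was 0.447. Of 160 single-gene values, 140 kept their direction. Mrc1, whose value rounded to 0 without control replicate 2 and SMA replicate 3, was counted among these. Under the replicate block 0 genes passed, with 303 lower and 356 higher genes at an unadjusted p under 0.05 in limma. Deviations from the group mean correlated at -0.037, 0.016 and 0.077 between same-numbered libraries. Between libraries of different numbers they correlated at -0.055 to 0.043. The control mean includes control replicate 2, which stood apart, so these values cannot decide whether the numbers pair the samples. Filters, the robust fit and the block do not enter the list medians, which cover all members. They cannot change the direction of a single-gene value either.

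Leaving out each library gave border medians from -0.629 to -0.195 and Kupffer medians from -1.374 to 0.026. Without control replicate 2, the sign turned for Cd163 (0.052), Ms4a7 (0.111), Clec4f (0.063), Vsig4 (0.034) and Cd5l (0.017), with the same values with no filter on low FPKM, and the lowest values on leaving out a library were -0.207, -0.232, -1.603, -1.146 and -1.821. Added after seeing the data, leaving out control replicate 2 with median ratio scaling gave 0.051, 0.108, 0.061, 0.033 and 0.017 for these genes and a Kupffer median of 0.025, and leaving out control replicate 2 and SMA replicate 3, with FPKM as deposited, gave 0.034, 0.157, 0.073, 0.025 and 0.043 and a Kupffer median of 0.034. These alternatives leave out the library that held the high values. Without it the genes whose sign turned were all below the filter, so the turned signs rest on low values and say little.

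With a pseudocount of 0.1, border minus Kupffer was -0.955 in control replicate 2 and had a median of 2.435 in the other 5 libraries, and border minus microglia was -0.56 and -2.751. The median log2 fold changes of the border and Kupffer lists, SMA against control, were then -0.736 and -1.593. A smaller pseudocount spreads low values. FPKM without depth give no limit of detection for genes set to 0.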

Other observations

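Of the lymphatic endothelium genes, Ccl21a, a chemokine, had 0.904, 1.23 and 1.51 FPKM in control replicates 1, 2 and 3 and 0.422, 0.0841 and 0.0624 FPKM in SMA replicates 1, 2 and 3. The groups did not overlap, with or without control replicate 2, as for 6.43% of all genes that reached 0.5 FPKM and had every SMA value below every control with all 6 libraries, and its adjusted p was 0.683 with all 6 libraries in limma with Benjamini-Hochberg adjustment. Of the meningeal fibroblast genes, Slc47a1, a transporter, had 7.60 FPKM in control replicate 2 and between 0 and 0.368 FPKM elsewhere.

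Sex-linked genes differed between libraries of the same group. Xist, the RNA of the inactive X chromosome, had 0.116, 101 and 0.0857 FPKM in the controls and 0.241, 0.216 and 146 FPKM in the SMA libraries. Eif2s3y, a gene of the Y chromosome, had 34.2, 10.1 and 32.7 FPKM in the controls and 33.6, 31.0 and 0.0325 FPKM in the SMA libraries. Control replicate 2 thus had both Xist and Eif2s3y, and Ddx3y, Uty and Kdm5d were above 0 there too, at 5.25, 5.42 and 2.25 FPKM. SMA replicate 3, the library lowest for Mrc1, Lyve1, F13a1 and Pf4, had Xist and no entry for Ddx3y, Uty and Kdm5d, which were set to 0. The part of sex in the values of the macrophage genes was not tested.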
